A study of Mus musculus with 40 samples.

Results

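Positive reporter fragments of hemogenic endothelium 2 (HE2) were compared with those of hemogenic endothelium 1 (HE1) in a mouse enhancer screen. A positive fragment is one found in the Low, Medium or High YFP gate of a stage and replicate. Overlapping fragments of all 40 libraries were merged into 75060 regions, of which 44047 held a positive fragment of HE1 or HE2 in at least 1 replicate. The stages were compared within each replicate after the larger set had been thinned to the size of the smaller, and a region is called kept, lost or gained by whether it was positive at both stages, at HE1 only or at HE2 only.

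The screen used HM-1 embryonic stem cells of 129/ola mouse origin, whose non-functional Hprt locus is repaired when the reporter integrates, so that all groups carried 1 fragment before an HSP68 minimal promoter and Venus-YFP at that locus. The cloned fragments were Tn5-cut open chromatin from 5 stages, and the plasmid libraries of these stages were mixed before transfection. Cells differentiated in serum were sorted as HE1 (KIT+ TIE2+ CD41-) or HE2 (KIT+ TIE2+ CD41+), and each stage was split into Negative, Low, Medium and High YFP gates in 2 replicates, which gave 16 libraries, of which 12 were positive. The Negative gate had been set on a line whose reporter carries no enhancer. Genomic DNA was sequenced, so the stages could not be checked against expressed marker genes. According to the study's methods, fragments were filtered for open chromatin and for an ATAC-Seq peak of the stage concerned. Whether the deposited lists had passed the stage filter is not stated, so a change in activity and a change in accessibility cannot be told apart here.

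Hemogenic endothelium is the specialised endothelium from which the first blood stem and progenitor cells arise. In the endothelial-to-hematopoietic transition these cells lose endothelial identity and gain a blood program under the transcription factor RUNX1, and CD41, encoded by Itga2b, is among the first blood markers to appear on their surface. TEAD factors with their HIPPO cofactors, AP-1 and SOX factors are known to act in the endothelial program, and RUNX1 and PU.1 in the blood program.

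The 200-base windows with the densest cover of positive fragments are shown for 7 regions on which the results turn, as the forward strand of mm10 (GRCm38). Capitals mark a run of alternating C and A, or T and G, of at least 20 bases. The first 4 regions were less frequent at HE2, Ywhaz is a less frequent region without such a run, Hs6st1 is the one more frequent region, and the Runx1 region was the one with most positive fragments in that locus. The windows are Adam19 chr11:46065317-46065516 (intron), Igfbp2 chr1:72813651-72813850 (intergenic), Ppy chr11:102096987-102097186 (intergenic), Vav1 chr17:57275615-57275814 (intergenic), Ywhaz chr15:36792600-36792799 (intron), Hs6st1 chr1:36064952-36065151 (intergenic) and Runx1 chr16:92883957-92884156 (intergenic).
Adam19: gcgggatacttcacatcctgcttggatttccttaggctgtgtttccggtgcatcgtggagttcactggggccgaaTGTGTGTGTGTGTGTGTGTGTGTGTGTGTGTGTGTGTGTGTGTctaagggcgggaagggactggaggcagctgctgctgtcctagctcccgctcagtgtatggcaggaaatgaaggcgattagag
Igfbp2: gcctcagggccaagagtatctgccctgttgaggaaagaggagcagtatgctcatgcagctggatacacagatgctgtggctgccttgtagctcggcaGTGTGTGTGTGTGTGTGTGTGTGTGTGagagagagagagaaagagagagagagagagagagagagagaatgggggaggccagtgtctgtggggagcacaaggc
Ppy: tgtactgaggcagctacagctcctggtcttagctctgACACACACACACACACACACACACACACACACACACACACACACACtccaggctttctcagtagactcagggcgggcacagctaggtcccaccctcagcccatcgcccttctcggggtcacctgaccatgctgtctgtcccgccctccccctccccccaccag
Vav1: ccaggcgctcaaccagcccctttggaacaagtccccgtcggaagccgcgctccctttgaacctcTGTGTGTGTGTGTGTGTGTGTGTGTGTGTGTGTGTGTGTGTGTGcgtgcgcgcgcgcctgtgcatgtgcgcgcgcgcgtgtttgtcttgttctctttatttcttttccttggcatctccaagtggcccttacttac
Ywhaz: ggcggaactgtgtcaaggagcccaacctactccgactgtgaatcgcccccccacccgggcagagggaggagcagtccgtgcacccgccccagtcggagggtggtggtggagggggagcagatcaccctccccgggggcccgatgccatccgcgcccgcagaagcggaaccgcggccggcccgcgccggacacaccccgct
Hs6st1: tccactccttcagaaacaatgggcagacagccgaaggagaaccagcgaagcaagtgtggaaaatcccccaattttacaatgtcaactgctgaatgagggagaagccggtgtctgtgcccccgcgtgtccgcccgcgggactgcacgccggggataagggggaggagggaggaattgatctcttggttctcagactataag
Runx1: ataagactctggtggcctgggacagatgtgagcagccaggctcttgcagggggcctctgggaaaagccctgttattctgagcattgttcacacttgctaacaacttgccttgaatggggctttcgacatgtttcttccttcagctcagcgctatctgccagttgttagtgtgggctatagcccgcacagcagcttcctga

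The capital runs were 43 bases long in Adam19, 27 in Igfbp2, 46 in Ppy and 44 in Vav1, and the Ywhaz, Hs6st1 and Runx1 windows held none. Of 12 motifs searched on both strands, the Adam19 and Igfbp2 windows each held 1 E-box (CAGCTG), found in 13.9% of all regions at this window length. The Hs6st1 window held 1 SOX match (ACAATGG, 1 of the forms of a motif present in 8.51% of windows), and the Runx1 window held 1 RBPJ match (TGGGAA, 19.9% of windows). The Ppy, Vav1 and Ywhaz windows held no match to any of them.

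The sorts differed widely in depth, and 2 HE1 libraries stood apart. Positive fragments numbered 101943 at HE1 and 68427 at HE2 in replicate 1, but 34809 and 3471 in replicate 2, and they covered 19241, 17562, 22833 and 3078 regions. HE1 Medium of replicate 1 shared 28868 identical fragments with HE1 Negative of the same sort, 69.8% of the latter, whereas the median over the 12 pairs of gates within a stage was 4.45%. HE1 Low of replicate 2 held 31915 of its sort's 34809 positive fragments, with a median length of 339 bp against 199 to 239 bp in the other positive libraries of that replicate, and it held 51.6% of the fragments of HE2 Low. Of the Negative fragments, 71.3% were also positive in the HE1 sort of replicate 1 and 9.28% in the HE2 sort, and the shares in replicate 2 were 55.8% and 47.3%. The kept shares, the classes of regions and the tests per region and gene are given below also without these libraries. The ranks of stage pairs, the shares between replicates and the counts of deeply covered regions were computed only with them. So were the fates of identical fragments, the shares of fragments over CA or TG runs and the list medians.

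Most regions positive at HE1 stayed positive at HE2 in replicate 1, and few did in replicate 2. At 68427 fragments per stage, replicate 1 had 13450 kept, 4006 lost and 4112 gained regions, and kept regions made up 62.4% of all regions positive at either stage. At 3471 fragments, replicate 2 had 309 kept, 2849 lost and 2769 gained regions, and the kept share was 5.21%. The mean over replicates was 33.8% ± 40.4 (SD, n = 2), so the spread exceeded the mean. Lost and gained regions were close to equal in number in both replicates, as sets of equal size tend to be. At these depths only the HE1 sets had been thinned, so a gained region could hold HE1 positive fragments that were left out. Without thinning, regions positive at HE2 only numbered 3246 in replicate 1 and 1369 in replicate 2, against 4112 and 2769. The motif densities and HP shares of gained regions given below at these depths rest on the thinned classes.

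The kept share moved with depth. When replicate 1 was thinned to the 3471 fragments of replicate 2, HE1 and HE2 shared 13.4% of regions, which ranked 3 of the 10 pairs of stages, after ES with HB (14.4%) and HB with HP (13.9%). ES are embryonic stem cells, HB hemangioblast-like cells and HP hematopoietic progenitors. In replicate 2 the pair ranked 6 with 5.21%, and HE2 with HP was highest at 12.3%. The ranges over the 10 pairs were narrow in replicate 1, where the lowest pair, ES with HE2, shared 11.3%. Without HE1 Low of replicate 2, the kept share of that replicate rose from 5.21% to 12.04%. Without HE1 Medium of replicate 1 it was 59.3% in replicate 1.

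The Negative gate turned over like the positive gates in replicate 1. At 8430 fragments, 25.6% of its regions were kept and 25.1% of positive regions at the same depth. However, 71.3% of the HE1 Negative fragments of that replicate and 9.28% of the HE2 ones were also positive. The Negative and positive sets were therefore not independent, which also holds for the Negative densities and HP shares given below. Turnover of the Negative gate without these shared fragments is not given here. In replicate 2, 39.3% of Negative regions were kept at 2727 fragments, against 4.23% of positive regions. Positive fragments of HE1 in replicate 1 shared 1.64% of regions with HE1 of replicate 2 and 2.54% with HE2 of replicate 2, both below the share between stages within a replicate. A region was therefore more often found again in the other stage of its own replicate than in the same stage of the other replicate.

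**Figure D1:**
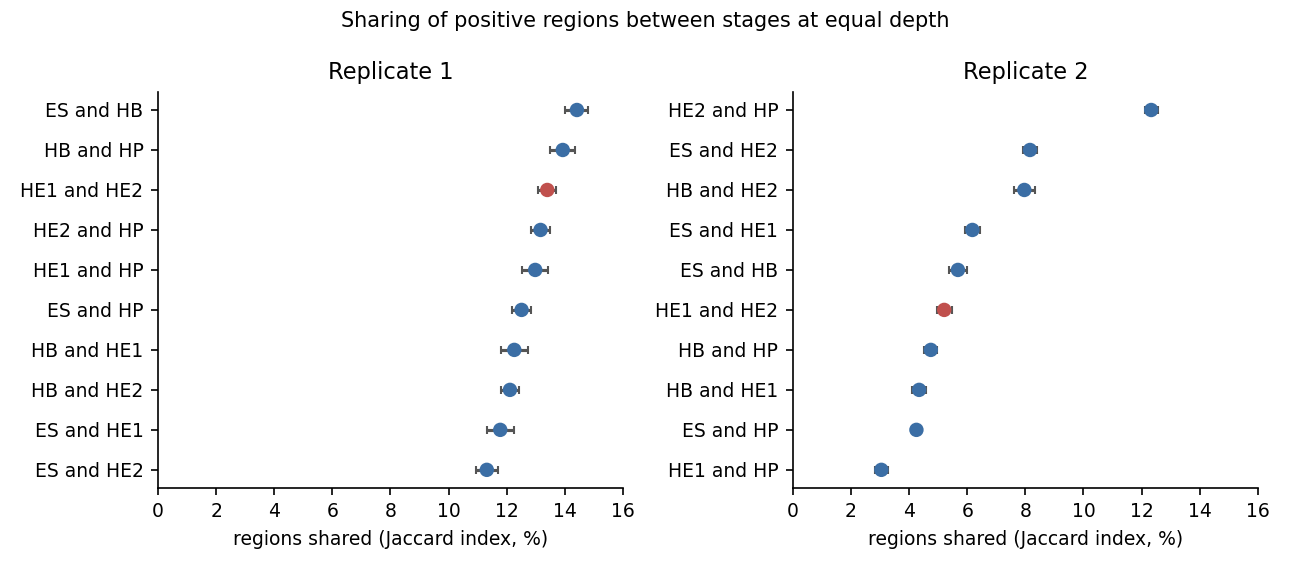
Percent of regions kept (regions positive at both stages over regions positive at either) for the 10 pairs of stages in each replicate, all thinned to 3471 positive fragments, with points for the mean and bars for the SD over 20 draws. HE1 with HE2 ranked 3 in replicate 1 at 13.4% and 6 in replicate 2 at 5.21%.

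Regions gained at HE2 differed from lost regions in motif content in replicate 1. Densities were taken over all positive fragments of both stages in a region, also those left out by thinning. Matches to RUNX (TGTGGTC or TGTGGTT), the site of the RUNX1 family, occurred 7.39 times per 10 kb of positive fragment sequence in gained regions, 4.24 times in lost and 4.69 times in kept regions. PU.1 sites (GAGGAAGT) followed the same order of gained over lost, with 2.33 and 1.52 per 10 kb. TEAD sites (GGAATGC or GGAATGT) ran the other way, with 3.52 in gained and 5.34 in lost regions. SOX sites (ACAAAGG or ACAATGG) numbered 4.67 and 6.08, and AP-1 sites (TGACTCA or TGAGTCA) 5.32 and 6.66. Thus RUNX and PU.1 sites were denser in gained regions and TEAD, SOX and AP-1 sites in lost regions of this replicate. By gate, TEAD kept this order in all 3 gates, but PU.1 was lower in gained than in lost regions in Low (1.71 and 1.99), SOX was higher in Low (5.38 and 5.11), and AP-1 was higher in Low (7.14 and 6.39) and High (6.54 and 6.09). GATA sites (AGATAAG) numbered 3.04 and 2.53. Over all fragments of the series the densities were 4.54 for RUNX and 3.62 for TEAD.

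The RUNX and TEAD differences held in replicate 1 without HE1 Medium, and replicate 2 gave a mixed picture. Without HE1 Medium, gained and lost regions of replicate 1 held 7.21 and 4.60 RUNX matches per 10 kb, and 3.71 and 5.09 TEAD matches. With fragments shared with the Negative gate left out, the RUNX densities were 7.65 and 4.27. By gate, RUNX was denser in gained than in lost regions in Medium (6.31 and 4.58) and High (6.11 and 4.77) but not in Low (4.85 and 5.49). In the Negative gate the densities were 5.20 and 4.69, and in positive fragments thinned to the same 8430 they were 5.05 and 4.79. In replicate 2, gained and lost regions held 4.01 and 3.93 RUNX matches and 3.02 and 2.72 TEAD matches. PU.1 (0.998 and 0.719) and SOX (3.39 and 3.83) ran there as in replicate 1, and AP-1 ran the other way (3.02 and 1.82). Without HE1 Low the RUNX densities of replicate 2 were 4.17 and 3.99. These densities come from 1 replicate each and carry no test.

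**Figure D2:**
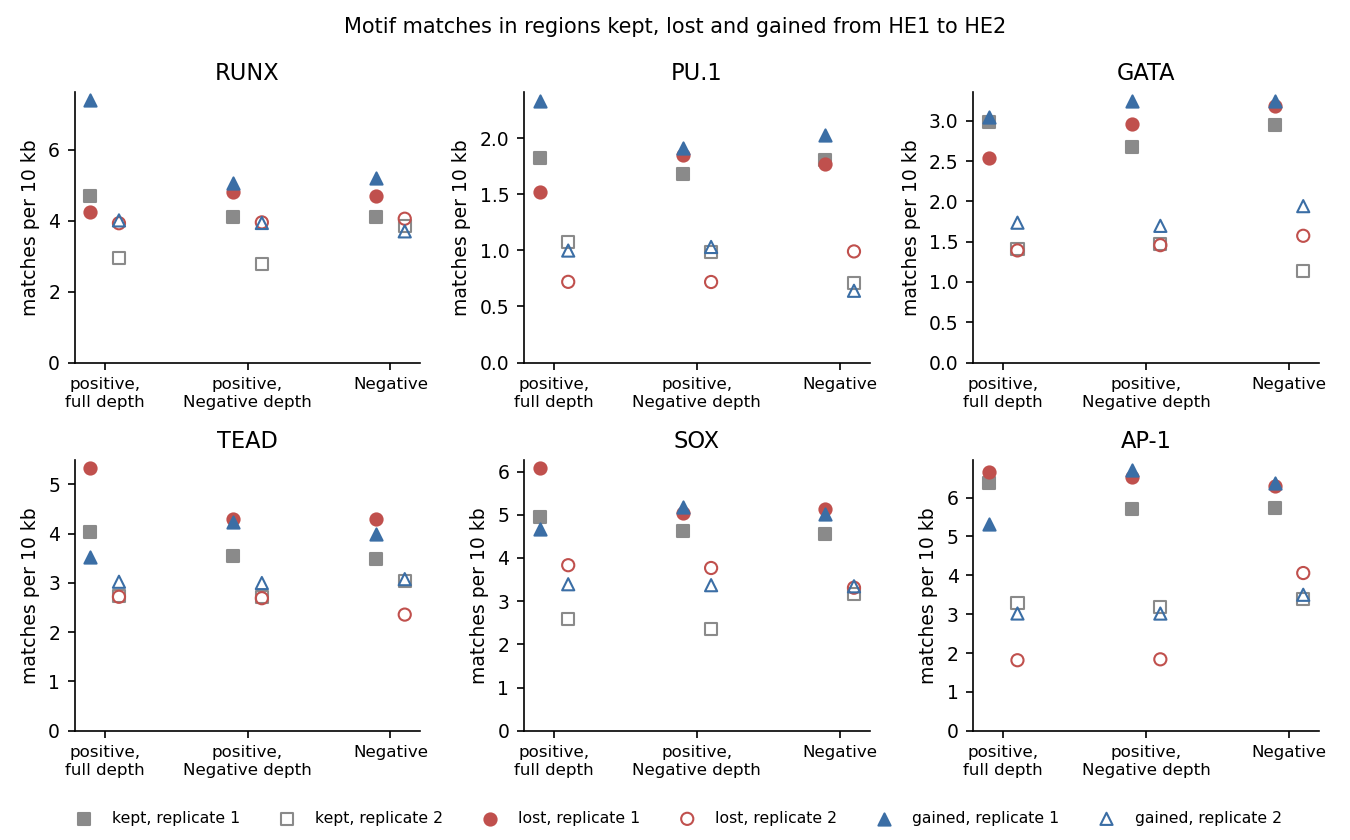
Matches per 10 kb of fragment sequence (vertical axes) for 6 motifs in regions kept, lost and gained from HE1 to HE2, in positive fragments at full depth, in positive fragments thinned to the Negative depth and in Negative fragments, with filled symbols for replicate 1 and open ones for replicate 2. At full depth in replicate 1, RUNX reached 7.39 in gained regions against 4.24 in lost ones, and TEAD 3.52 against 5.34. In replicate 2 the RUNX values were 4.01 and 3.93.

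Gained regions were more often positive in HP than lost regions. In replicate 1, 35.6% of gained, 21.1% of lost and 65.4% of kept regions were also positive in HP, the population that follows HE2, while 22.0% of gained and 21.4% of lost regions were positive in HB, the population before HE1. In replicate 2, 29.5% of gained and 4.50% of lost regions were positive in HP, but gained regions were also more often positive at earlier stages there, with 44.0% and 20.3% in HB and 32.2% and 22.9% in ES. The Negative gate of replicate 1 gave HP shares of 60.8% and 56.6%, and positive regions at the Negative depth 61.1% and 57.5%, so the difference was smaller in the shallower sets. In the Low gate of replicate 1 alone they were 53.4% and 53.3%. Without HE1 Medium the shares in replicate 1 were 36.6% and 27.0%, and without HE1 Low those in replicate 2 were 22.0% and 5.01%.

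In replicate 1, kept regions were broader and deeper than gained and lost ones. There, kept regions held 10.7 positive fragments per region over a median width of 572 bp, and gained and lost regions held 2.08 and 2.58 fragments over 289 and 282 bp. A single positive fragment was all that 48.7% of gained and 39.6% of lost regions held. The classes were set by the presence of these same fragments, so fragment numbers are not independent of class. Nor is width, since regions were merged from overlapping fragments. In replicate 2, lost regions were the widest (363 bp against 343 bp in kept and 238 bp in gained regions), and 31.5% of kept regions held a single fragment. With regions of at least 2 fragments only, the RUNX densities of gained and lost regions of replicate 1 were 7.37 and 4.14 per 10 kb. Deeply covered regions were counted without thinning, at 101943 HE1 and 68427 HE2 positive fragments in replicate 1. There, 50 of the 2614 with at least 10 HE1 positive fragments had none at HE2. Of the 1294 with at least 10 at HE2, 5 had none at HE1. All 5 were positive in HP. Of the 50, 48 had no fragment in any HE2 gate, and 13 of these 48 were positive in HP. In replicate 2, at 34809 and 3471 positive fragments, 145 of 177 such HE1 regions had none at HE2. The 1 region with at least 10 at HE2 was also positive at HE1 there.

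Few regions changed class the same way in both replicates. Regions positive at HE1 only in both replicates numbered 236, regions positive at HE2 only in both numbered 10, and 299 were positive at both stages in both, without thinning. Another 142 were positive at HE2 only in replicate 1 and at HE1 only in replicate 2, and 12 the reverse. Of all 75060 regions, 4925 in replicate 1 and 21124 in replicate 2 were positive at HE1 only. Those positive at HE2 only numbered 3246 and 1369. The counts of 236 and 10 were not corrected for these unequal depths. The 10 gained regions held 2 to 5 positive fragments in all and included one 127980 bp from Efnb2, an arterial ephrin ligand, with 4 HE2 fragments in replicate 1 and 1 in replicate 2. Of the 236 lost regions the one with most fragments, 31 of its 32 from replicate 2, lay in an intron near Gtf3c4, a subunit of a general factor of RNA polymerase III. The Vav1 region followed with 19 HE1 fragments in replicate 1 and 2 in replicate 2, and none at HE2. The Gtf3c4 region also held 34 HE1 Negative fragments in replicate 1. The Efnb2 and Gtf3c4 regions were named after their counts had been seen.

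The share of positive fragments in each region was then tested with an exact Cochran-Mantel-Haenszel test stratified by replicate, with Benjamini-Hochberg adjustment and a minimum of 20 positive fragments. Of 1826 regions tested, 1 was more frequent at HE2 (0.0548%) and 13 were less frequent (0.712%) at an adjusted p under 0.05. At an unadjusted p under 0.05, 56 were higher and 51 lower, and the median log2 odds ratio was 0.02. Fragments are counted once per library and may derive from shared molecules, and the 3 gates of a replicate share 1 culture, so these p-values cover counting error and not the spread between cultures. By limma on the 12 libraries, 0 regions passed and 32 had an unadjusted p under 0.05. In the Negative gate, 0 of 107 regions passed the exact test (0%) and 2 had an unadjusted p under 0.05.

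The region in an intron of Adam19, a membrane metalloprotease, held 50 positive HE1 fragments in replicate 1 and 0 at HE2, with 0 in both stages of replicate 2. Its share was at least 11.2-fold lower at HE2 against a floor of 3 counts over the group (exact test, Benjamini-Hochberg adjusted p = 1.82e-08), but 49 of the 50 were in HE1 Medium, and without that library 1 fragment was left. The intergenic region near Igfbp2, an insulin-like growth factor binding protein, held 37 and 0 fragments in replicate 1, all 37 in HE1 Medium, and was at least 8.28-fold lower. The Dock6 region, in an intron of an exchange factor for Rac and Cdc42, held 67 and 10, and was 4.50-fold lower. Without HE1 Medium it held 9 and 10 fragments. All 3 regions were thus carried by 1 library.

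The intergenic region near Ppy, the pancreatic polypeptide gene, held 44 HE1 and 2 HE2 positive fragments in replicate 1, and 2 and 1 in replicate 2. Of the 44, 35 were found in HE1 Medium, and without that library the counts of replicate 1 were 9 and 2. An intron region near 6030407O03Rik held 64 and 12, of which 12 and 12 were left without HE1 Medium. The Vav1 region, at -3650 bp from the start site of a gene for a blood cell exchange factor, was the only called region whose share moved the same way in both replicates. Its positive fragments were 19 and 2 at HE1 and 0 and 0 at HE2 in replicates 1 and 2, so that it was at least 4.32-fold lower, and 17 of the 19 lay in HE1 Medium. The 2 and 0 of replicate 2 carry little weight, since that replicate had 34809 positive fragments at HE1 and 3471 at HE2.

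The Ywhaz region was less frequent at HE2 across gates. It lay in an intron of Ywhaz, which encodes the 14-3-3 zeta adaptor, 1816 bp from the start site (chr15:36792313-36793128). In HE1 of replicate 1 it held 6 Low, 13 Medium, 12 High and 11 Negative fragments, which came to 30 different positive ones, and in HE2 it held 0 in each of the 4 gates. Neither stage of replicate 2 held any. Its positive share was at least 6.71-fold lower (exact test, Benjamini-Hochberg adjusted p = 0.000145). Without HE1 Medium and with a minimum of 10 fragments, a setting chosen after seeing the data, it held 17 and 0 fragments. It was still called there (exact test, adjusted p = 0.00158). Of 3841 regions tested in that setting 3 were called, and the other 2, near Cryz and Impg1, were higher at HE2. In replicate 1 the Ywhaz region held 14 positive fragments in HB and 19 in HP. It was thus positive before and after HE2 but not in HE2. Outside HE1 Medium, 4 more called regions had fewer fragments at HE2, with 9 and 0 for Gm29681, 11 and 1 for 1810019N24Rik, 9 and 1 for Traf5 and 8 and 1 for Palld, but without that library 1810019N24Rik and Traf5 did not pass and Gm29681 and Palld held too few fragments to be tested, also at the minimum of 10.

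The one region more frequent at HE2 lay at -3297 bp from the start site of Hs6st1, a heparan sulfate 6-O-sulfotransferase. It held 4 positive HE1 and 16 HE2 fragments in replicate 1 and 0 in replicate 2, with 11 of the 16 in HE2 Low. Its share was 5.96-fold higher (log2 2.58 ± 0.81, SE; exact test, Benjamini-Hochberg adjusted p = 0.0482). The call was lost with a minimum of 10 fragments, where more regions were tested. At that minimum 18 of 5945 regions were called, 6 of them higher and 12 lower at HE2. The Hs6st1 region did not pass without HE1 Medium at that minimum either (3 and 16 fragments, exact test, adjusted p = 0.942). The call was also lost without Negative-shared fragments (log2 2.10, exact test, adjusted p = 0.293). After the collapse, and with Medium and High only, 0 regions were higher.

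**Figure D3:**
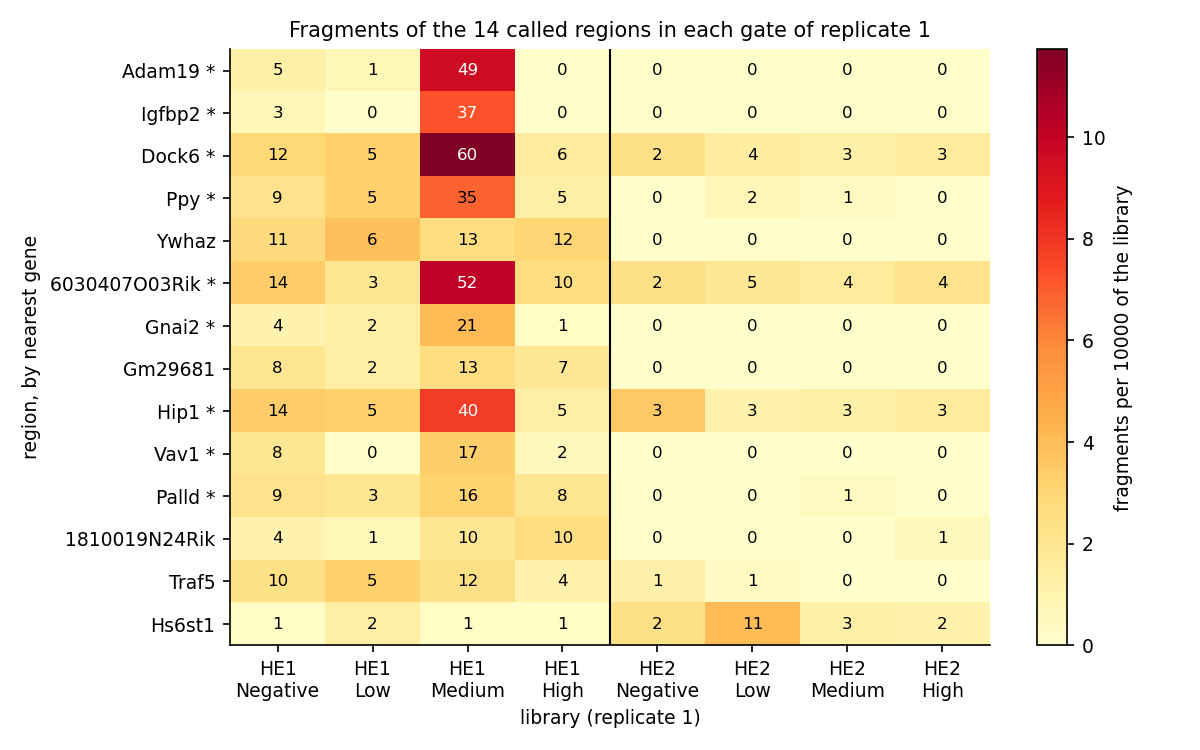
Number of fragments (printed) and fragments per 10000 of the library (colour) in each gate of HE1 and HE2 in replicate 1 for the 14 regions past the threshold, named by nearest gene, with an asterisk for regions that hold a CA or TG run. For Adam19 and Igfbp2 nearly all positive fragments sat in HE1 Medium (49 and 37), while the 6 Low, 13 Medium, 12 High and 11 Negative fragments of Ywhaz were spread over the HE1 gates.

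Regions that became less frequent were rich in CA or TG repeats, a property noticed after their sequences had been printed. A run of at least 20 bases occurred in 9 of the 13 less frequent regions (69.2%), in 128 of 1812 tested regions that were not called (7.06%) and in 2.02% of all regions. Among regions with a run the median log2 odds ratio was -0.26 over 137 tested, and without one it was 0.04 over 1689. Of the positive fragments of HE1 Medium of replicate 1, 2.86% overlapped a run, against 0.851% in HE1 High, 0.841% in HE1 Low and 0.549% to 0.928% in the positive HE2 gates. In replicate 2 the share was 6.29% in HE1 Low, 2.86% in HE1 Medium and 3.26% in HE1 High, and 1.17% to 2.72% in HE2. Overlap with a run was thus lower at HE2 in 5 of 6 pairs of gate and replicate, by a mean of 1.48 percentage points. The means were 2.83% ± 2.00 at HE1 and 1.34% ± 0.84 at HE2 (SD, n = 6, two-sided exact permutation p = 0.0625). Since the runs were noticed in regions lower at HE2 in these same libraries, this p-value is not independent support. The comparison was not made without HE1 Medium of replicate 1 or HE1 Low of replicate 2.

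Fragments over a run also had near-identical ends more often. Collapsing fragments whose ends both lay within 5 bp removed 39.7% of run fragments and 5.32% of the others in HE1 Medium of replicate 1. After the collapse 4 regions were called. With run fragments left out, 2 of 1751 regions were called, Ywhaz (exact test, adjusted p = 0.00035) and the region near Gm29681 (22 and 0 positive fragments, adjusted p = 0.0205). The part of amplification or alignment of repeats in these values was not tested.

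**Figure D4:**
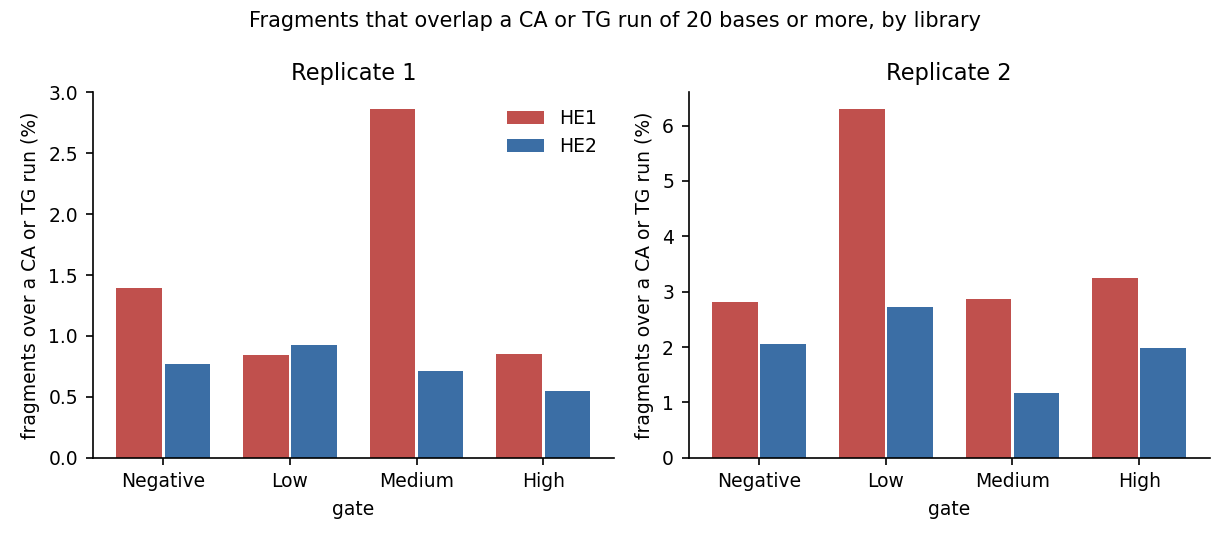
Percent of fragments that overlap a CA or TG run of at least 20 bases in each gate of HE1 and HE2, by replicate. HE1 Medium of replicate 1 (2.86%) and HE1 Low of replicate 2 (6.29%) were the highest libraries of their replicates.

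When positive fragments were summed by the nearest transcription start site, 3282 of 14204 genes were tested. By the same exact test, 2 genes were more frequent at HE2 (0.0609%) and 3 less frequent (0.0914%), and the median log2 odds ratio was -0.01. At an unadjusted p under 0.05 there were 100 and 95. By limma, 0 genes passed and 108 had an unadjusted p under 0.05, and in the Negative gate 0 of 457 genes passed the exact test (0%) with 18 at an unadjusted p under 0.05. The more frequent genes rested on replicate 2. Cryz, which encodes a quinone reductase, held 2 HE1 and 0 HE2 fragments in replicate 1 but 5 and 14 in replicate 2, 13 of them in HE2 Medium (10.1-fold higher, adjusted p = 5.12e-06). Its Negative gate held 15 and 11 fragments in that replicate. Impg1, a gene of the photoreceptor matrix, held 13 and 9 in replicate 2 and none in replicate 1 (6.96-fold higher, adjusted p = 0.0447), beside 16 and 16 Negative fragments. The increases were therefore in share and not in number of fragments for Impg1, since HE2 had the smaller total. All 13 HE1 fragments of Impg1 were in HE1 Low. Without HE1 Low of replicate 2, without Negative-shared fragments and after the collapse, both genes fell under the minimum of 20 fragments, and 0 genes were higher in each of these settings. With the replicates summed neither passed (adjusted p = 0.14 for Cryz and 0.921 for Impg1).

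The 3 less frequent genes were those of regions already described. Igfbp2 held 37 and 3 HE1 fragments in replicates 1 and 2 and none at HE2 (at least 8.38-fold lower). Dock6 held 73 and 14 in replicate 1 (3.50-fold lower), and Ppy 44 and 4 in replicate 1 and 14 and 1 in replicate 2 (5.74-fold lower). The shares of Igfbp2 and Ppy moved the same way in both replicates. The counts of replicate 2 carry little weight in this, since it had 34809 positive fragments at HE1 and 3471 at HE2. Without HE1 Medium of replicate 1, none of the 3 was called, with Dock6 at log2 -0.24 and Ppy at -1.24, and the 4 genes then called were all higher at HE2. With run fragments left out, Cryz was the one gene called.

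Runx1, the master regulator of the transition, was the locus of those examined one by one with the lowest p. Positive fragments near it numbered 40 at HE1 and 53 at HE2 in replicate 1 and 16 and 5 in replicate 2, which is 3.92 and 7.75 per 10000 positive fragments in replicate 1 and 4.60 and 14.4 in replicate 2. Its share was higher at HE2 in both replicates and 2.07-fold higher over both (log2 1.05 ± 0.28, SE; exact test, unadjusted p = 0.000211), but it did not pass after Benjamini-Hochberg adjustment over all genes (adjusted p = 0.0868). The log2 odds ratio stayed between 0.68 and 1.65 in 12 alternatives and passed the threshold in 1, with the replicates summed (adjusted p = 0.0278). In replicate 1 the HE2 fragments were spread over 22 Low, 12 Medium and 20 High, against 8, 17 and 16 at HE1. The Negative gate there held 21 of 41374 fragments at HE1 and 2 of 8430 at HE2. In replicate 2 it held 1 of 2773 and 2 of 2727. The 5 HE2 positive fragments of replicate 2, out of 3471, carry little weight. Positive fragments of replicate 1 covered 10 regions at HE1 and 13 at HE2, of which 8 were shared. In replicate 2 they covered 12 regions at HE1 and 2 at HE2, of which 2 were shared. A region at -2190 bp from the start site was lost in both replicates, with 3 and 2 HE1 fragments and 0 at HE2. The region with most fragments lay at -58014 bp from the start site (chr16:92883750-92884435). In replicate 1 it held 11 and 15 positive fragments, 11 in HB and 4 in HP.

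The other loci did not pass. Itga2b, the gene of the CD41 antigen that separates HE2 from HE1, held 30 positive HE1 and 11 HE2 fragments in replicate 1 and 0 and 1 in replicate 2 (log2 -0.69 ± 0.49, adjusted p = 0.925, exact test). The share of Itga2b fragments was therefore not higher in the CD41+ stage of replicate 1. Tal1, a founding regulator of blood, held 26 and 26 (log2 0.51), and Gata2, active in endothelium and progenitors, 34 and 29 (log2 0.39). Kdr, the VEGF receptor gene, held 70 and 60 (log2 0.33), and Sox17, an arterial endothelial factor, 40 and 22 (log2 -0.32). Each of these 4 log2 odds ratios lay within 2 SE of 0. The rest of the loci tested, Gfi1, Spi1, Kit, Notch1, Dlk1, Cdh5, Tek, Sparc, Hspg2 and Pxn, ranged from -0.66 to 0.47 on the log2 scale, and Gfi1b, with 3 and 0 fragments in replicate 1, fell under the minimum.

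Gene lists of the endothelial and blood programs were read as counts and medians beside those of all genes. No member of the 10 lists passed the threshold. Of 27 endothelial genes 19 were tested, 15 of them with a log2 odds ratio above 0, and the median was 0.27 against -0.01 over all genes. Their fragments made up 73.1 of every 10000 positive fragments at HE1 and 82.6 at HE2 in replicate 1, and 24.7 and 46.1 in replicate 2, beside 80.2 and 79.5 and 43.3 and 47.7 in the Negative gate. Nos3, the endothelial nitric oxide synthase gene, held 16 and 22 fragments in replicate 1 and none in replicate 2 (log2 1.03 ± 0.47). Ets1, an endothelial and lymphoid ETS factor, held 83 and 79 in replicate 1 and 3 and 1 in replicate 2 (log2 0.52 ± 0.23). Both had an unadjusted p under 0.05 only (exact test, adjusted p = 0.798 and 0.748).

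Of 25 blood transcription factors 15 were tested, with 7 above 0 and a median of -0.12. Runx1 was the highest at 1.05 and Cebpb, a myeloid factor, the lowest at -1.70, with 24 HE1 fragments in replicate 1, 20 of them in HE1 Medium, and 5 at HE2. The 6 blood cell surface genes tested had a median of 0.16, and the lowest was Itgb3, the partner integrin of CD41, at -1.05 with 34 and 12 fragments in replicate 1 and 13 and 0 in replicate 2. Of 22 genes of the HIPPO pathway and AP-1 family 11 were tested, 8 of them below 0, with a median of -0.30. Fosl2, an AP-1 subunit, held 12 and 1 fragments in replicate 1 and 35 and 0 in replicate 2, 31 of the 35 in HE1 Low (log2 -3.74 ± 1.54; exact test, adjusted p = 0.197). Tead1, a TEAD factor, held 73 and 35 in replicate 1 and 9 and 0 in replicate 2 (log2 -0.53). Both genes had fewer HE2 fragments in both replicates, without passing the threshold. Replicate 2 had 3471 positive fragments at HE2 against 34809 at HE1, so the 9 and 0 of Tead1 there carry little weight.

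The TGF-beta and BMP list (12 tested) had a median of -0.22, with Smad6, an inhibitor of BMP signalling, at 0.66 (49 and 55 fragments in replicate 1). The Notch list (7 tested) stood at -0.05 and the matrix and adhesion list (10 tested) at -0.02. The smooth muscle list, for another cell type the culture could hold, and the off-lineage pluripotency and neuronal synapse lists had few members tested. They were 1 smooth muscle gene at -0.52, 2 pluripotency genes with a median of 0.27 and 5 neuronal synapse genes with a median of -0.09.

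**Figure D5:**
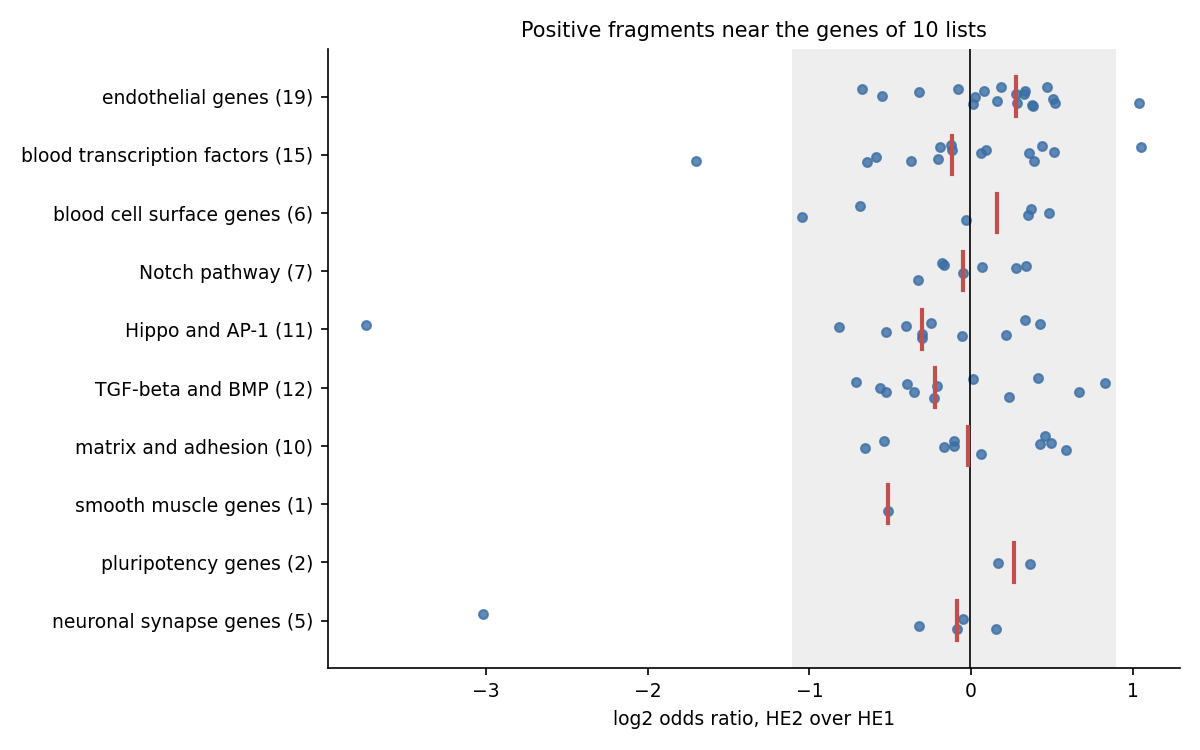
Log2 odds ratio of HE2 over HE1 (stratified by replicate) for each tested member of the 10 gene lists as points, with list medians as red bars, the median of all 3282 genes as a black line and the 5th to 95th percentile of all genes as a grey band. The endothelial median was 0.27, that of the HIPPO and AP-1 list -0.30, and Runx1 stood at 1.05.

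Across whole libraries no sequence property or place in the genome passed the test. HE1 and HE2 were compared in 6 pairs of gate and replicate, where 64 exchanges of labels allow a p of 0.03125 at the lowest. Median fragment length was 202 bp ± 72.0 at HE1 and 191.5 bp ± 36.6 at HE2 (SD, n = 6; two-sided exact permutation p = 0.969). Mean GC content was 52.3% ± 3.18 and 52.8% ± 2.49 (exact permutation p = 0.188). The intronic share was 45.1% ± 0.617 and 46.5% ± 1.44, higher at HE2 in 5 of 6 pairs (exact permutation p = 0.0938), and the intergenic share was 48.8% ± 0.712 and 46.7% ± 2.10, lower in 5 of 6 (exact permutation p = 0.0625). Both mean differences, 1.42 and -2.06 percentage points, were somewhat larger than their SD over pairs (1.33 and 1.96). They lay mostly in replicate 2, where the intronic difference was 2.46 and the intergenic one -3.79. In replicate 1 the same differences were 0.38 and -0.32. The 3 gates of a replicate share 1 culture, so the 6 pairs are not independent. Of 12 motifs 0 passed after adjustment by the same exact permutation test, and 0 had an unadjusted p under 0.05 (lowest adjusted p = 0.656). RUNX numbered 4.31 ± 0.71 per 10 kb at HE1 and 4.63 ± 0.84 at HE2 and was higher in 4 of 6 pairs, and TEAD numbered 3.41 ± 0.87 and 3.55 ± 0.58. With 6 pairs and 12 motifs this test can hardly pass the threshold. Over all positive fragments of replicate 1, RUNX was 4.77 at HE1 and 5.03 at HE2 and TEAD 4.13 and 4.04, smaller differences than between gained and lost regions.

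Fragments with identical ends at both stages were used to ask whether a fragment stayed in its YFP gate. There were 6702 of them in replicate 1 (9.79% of HE2 positive fragments) and 1734 in replicate 2 (50.0%). Of 5421 found in a single positive gate at each stage in replicate 1, 1729 were in the same gate, 31.9% (Wilson 95% interval 30.7 to 33.1), and the gate totals alone give 32.0%. In replicate 2 it was 674 of 971, 69.4% (66.4 to 72.2), beside 68.5% from the totals. The share that stayed was thus close to that from the totals, but the gates differed in where their fragments went. In replicate 1, 45.0% of HE1 Medium fragments were in Low at HE2, against 30.8% of HE1 High fragments and 38.6% over all gates, and 30.2% of HE1 High fragments were in High, against 26.6% over all. In replicate 2, 10 of 21 HE1 High fragments were again in High, 47.6% against 8.24% over all gates. These differences between gates were not tested, and they were not computed without HE1 Medium of replicate 1 or HE1 Low of replicate 2. Of HE1 positive fragments seen again in any HE2 gate of replicate 1, 91.9% were positive (91.3 to 92.5), against 88.7% of those that had been Negative only at HE1 (86.1 to 90.8). In replicate 2 these shares were 79.9% (78.2 to 81.6) and 58.2% (53.7 to 62.5). Positive fragments were thus more often positive again in both replicates, with the larger difference in replicate 2.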

How the data were processed

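Each library was deposited by the authors as a list of start and end coordinates, in bp on mm10, with every fragment listed once and no other unit. The submitters' processing notes name Trim Galore, Bowtie2, SAMtools, bedtools and HOMER, with no versions given in the sources used here. Without read counts or molecular identifiers, depth is the number of fragments (654 to 51146 per HE1 or HE2 library), and intervals cover counting error only.

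Fragments were pooled, merged and thinned (mean of 20 seeded draws) in Python 3.11.15 with pandas 2.3.3, numpy 2.4.6 and scipy 1.17.1. Place and nearest start site came from RefSeq on GRCm38, for the fragment nearest the region's centre. Regions and genes with at least 20 positive fragments were tested with replicate as stratum, and limma 3.58.1 (R 4.3.3) was an alternative. Tests were checked on simulated data. Replicate numbers were used to pair the samples. The methods describe a transfection for each experiment, after which the selected cells were differentiated and sorted. Each replicate was taken as 1 such experiment, which is not stated outright.

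Named were the 6 regions and 5 genes with the lowest adjusted p per direction, the same among those moving alike in both replicates, called list members, and 17 loci. The members, lists and loci were chosen with earlier results of these data known.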

Additional observations from a re-analysis of the deposited data

Results flagged for a closer look

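The change in median fragment length from HE1 to HE2 stood apart in the Low gate of replicate 2, where it was -125 bp. The other 5 pairs of gate and replicate lay between -7 and 27 bp, and the gap took 77.6% of the whole range. HE1 Low of replicate 2 is also the library with 31915 fragments and a median of 339 bp. In all, 17 measures over the 6 pairs were examined in this way and 1 was picked out, and chance alone picks out about 1 group in 20.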

How the results depend on the processing

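The number of regions called fell from 14 to 0 without HE1 Medium of replicate 1, to 4 with near-identical fragments collapsed, to 7 with Medium and High only, to 5 with a minimum of 40 fragments and to 0 with limma. It was 3 without HE1 Medium at a minimum of 10 (2 higher and 1 lower at HE2) and 2 without run fragments (both lower). Both settings were added after seeing the data. The number rose to 18 at a minimum of 10 (6 higher and 12 lower). It was 17 with regions merged from the 12 libraries alone and 15 with bins of 1000 bp, each with 1 higher. The number of genes called fell from 5 to 3 without Negative-shared fragments, 3 without HE1 Low of replicate 2, 4 without HE1 Medium of replicate 1 (all higher at HE2, 2 of them among the 5), 1 after the collapse, 2 with Medium and High only, 3 at a minimum of 40 and 0 with limma, and the added settings gave 3 and 1. Leaving out a replicate gave 2 to 13 regions and 1 to 3 genes. Without replicate 1 the 2 regions called were both higher at HE2, with 0 of them among the 14. Without replicate 2, 1 region was higher and 12 were lower. With no replicate block, the replicates being summed, 47 regions and 50 genes were called. Without the pairing, no motif, length, GC or intron comparison passed either. The causes were not tested.

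The length difference turned to 12.4 bp without HE1 Low of replicate 2, and without a replicate it ranged from -26.0 to 5.00 bp, and that in GC from -0.0685 to 1.09 percentage points. Signs also turned for single loci. Without Negative-shared fragments Gfi1 was 0.04 and Spi1 -0.000593. Without HE1 Medium of replicate 1 they were 0.39 and -0.24 and without HE1 Low of replicate 2 -0.15 and 0.0606, and Spi1 was -0.45 with Medium and High only. With no replicate block Notch1 was -0.0032 and Sparc 0.22. With limma Tal1 was -0.20, Itga2b 0.13, Kit -0.31, Notch1 -1.01, Kdr -0.77 and Hspg2 -0.30. Among motifs, the difference per 10 kb turned without Negative-shared fragments for PU.1 (0.0317) and CTCF (0.0558), for ETS with Medium and High only (-0.0281), and for CTCF after the collapse (0.00842), at 100 to 300 bp (0.0651) and as percent of fragments (0.045). Leaving out a library or replicate gave -0.023 to 0.80 for AP-1, -0.11 to 0.0235 for PU.1, -0.0011 to 0.0229 for ETS, -0.0897 to 0.36 for TEAD, -0.000478 to 0.0625 for OCT, -0.191 to 1.57 for RBPJ and -0.10 to 0.0956 for CTCF. Few fragments in replicate 2 and only 2 replicates limit all these comparisons.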
